A study of Mus musculus with 31 samples.

Results

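B cell genes are described here as a fixed list of 31 genes that mark mature B cells in the mouse or that work in the signalling of their antigen receptor. The members were chosen by name, and each of the 31 symbols matched exactly 1 of the 29120 gene IDs in the count files. By their known use as markers, 25 of them are carried by B cells in general, 2 (Fcer2a and Cxcr5) are marks of follicular B cells and 4 (Cr2, Cd1d1, Dtx1 and Tnfrsf13b) are marks of marginal zone B cells. By role, 15 belong to the receptor complex, its co-receptors and its signalling chain, 6 are transcription factors and 4 are surface and survival receptors, beside the follicular and marginal zone genes.

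RNA was sequenced from whole spleens and from dendritic cells of C57BL/6 mice, either Gpr34-/- or wildtype, where Gpr34 is a G protein-coupled receptor for lysophosphatidylserine. There were 9 knockout and 10 wild-type spleens, all naive and from mice aged 12 weeks. The dendritic cells, antigen-presenting cells, were grown from the marrow of male mice aged 8 to 16 weeks, over 10 days in medium conditioned by a GM-CSF secreting X63 line. Of the cultures labelled knockout 3 received LPS, the endotoxin of bacterial cell walls, on day 11 for 8 h and 3 were naive, and the wild-type cultures were divided in the same way. The labels number the replicates without naming an animal or culture, so a p-value speaks only to the spread among the libraries, which may be technical, and they do not say how the Gpr34 allele was made.

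Mature B cells sense antigen through a membrane immunoglobulin whose signal is carried by Cd79a and Cd79b, passed on by the kinases Blk, Lyn and Syk and the adaptor Blnk, and held in check by Cd22, Cd72 and Btla. Pax5 and Ebf1 keep the B cell identity, and Spib and Pou2f2 serve genes that mature B cells need. In spleen most B cells recirculate and sit in follicles, while marginal zone B cells stay at the border to the red pulp and carry much Cr2 and Cd1d1. Several members, among them Blnk, Cd72, Btla, Cd24a, Cd1d1, Spib and Swap70, are also known from dendritic or other myeloid cells.

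Total counts per library were 80590338 to 133277070 in knockout and 56834377 to 119384704 in wild-type spleens, and 38998746 to 74164853 in the 12 dendritic cell libraries. Gpr34 held 42 to 156 counts in knockout and 308 to 986 counts in wild-type spleens, and their ranges did not overlap (log2 fold change -2.51, SE 0.25, adjusted p = 3.99e-05). In dendritic cells the libraries labelled knockout held 0 to 120 counts and wild-type libraries 65 to 324, and 3 of the 6 so labelled held over 100, so that knockout is given as a label only for these cells. The summed level of 8 B cell markers, all of them members (Ms4a1, Cd79a, Cd79b, Pax5, Cd22, Blk, Cr2 and Fcer2a), was 1738 to 3519 CPM (counts scaled to a common library size, here the plain total) in spleens and 1.88 to 9.63 CPM in dendritic cells. A list of 8 dendritic cell markers summed to 148 to 322 CPM in spleens and 644 to 979 CPM in dendritic cells. Gene by gene the list did not follow its sum. Between wild-type spleens and naive wild-type dendritic cells 5 of the 8 were higher in spleen and 3 lower (edgeR's quasi-likelihood test, adjusted p under 0.05). Their median log2 fold change was 1.81, and 42.4% of all genes tested were higher and 28.6% lower. Of that list Siglech was at 0 counts in both LPS-treated groups and Cd209a in the LPS-treated wild-type group.

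In wild-type spleens the members spanned a wide range of levels per kilobase of exon, the scale on which genes can be compared. Cd79b stood highest at 464 CPM per kilobase, followed by Cd79a at 199, Cd72 at 174 and Fcer2a, the low-affinity IgE receptor CD23, at 137. The receptor chain Cd79b thus ranked as number 122 of the 24744 genes ranked. Cd22, a sialic acid-binding inhibitory co-receptor, was at 126 CPM per kilobase, Fcrla at 125 and the IgM receptor gene Fcmr at 116. Of the transcription factors 4 closed the order, with Pou2f2 at 11.8, Ebf1 at 7.84, Bach2 at 6.45 and Bcl11a at 5.78 CPM per kilobase, while Spib at 79.6 and Pax5 at 45.5 stood far above them. Between libraries the members varied about as much as other genes: the coefficient of variation over the 10 wild-type spleens had a median of 15% over the 31 members and of 14.1% over 9637 genes of at least 10 CPM. The kinase gene Blk was the steadiest at 4.45% and Cd24a, which red cell precursors carry too, the most variable at 32.1%.

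Wild-type spleens were then set against naive wild-type dendritic cells. Of the 31 members 29 were higher in spleen and 0 were lower (edgeR's quasi-likelihood test, adjusted p under 0.05 over 21660 genes), where 42.4% of all genes tested were higher and 28.6% lower. The members' median log2 fold change was 6.92, against 0.33 over all genes tested. At least 8-fold higher were 26 members and at least 64-fold 19. All 15 genes of the receptor complex and its signalling, all 6 transcription factors and both follicular genes passed, with 3 of 4 surface and survival receptors and 3 of 4 marginal zone genes. Tissue, culture and cell composition cannot be told apart in this comparison. The housekeeping gene Gapdh was at 93.7 ± 12.8 CPM with TMM-scaled library sizes in wild-type spleens (SD, n = 10). In naive wild-type dendritic cells it was at 3.41 ± 0.9995 TMM-scaled CPM (SD, n = 3). The scaling was done separately within spleens and within dendritic cells. How multi-mapped reads were treated is not known, and whether reads of Gapdh were lost in counting was not tested. Its values are therefore not read as a tissue difference.

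Fcer2a ran from 317 to 522 CPM of the plain library size in the 10 wild-type spleens (median 468) and had 0 counts in the 3 naive dendritic cell libraries. Taking 3 counts in the pooled group as a floor, it was at least 25340-fold higher in spleen. Vpreb3, which binds nascent immunoglobulin light chains, ran from 19.7 to 45.9 CPM in spleens (median 26.6) and had 0 counts in all 12 dendritic cell libraries, at least 1599-fold higher in spleen than in the 3 naive wild-type libraries. Both genes were without a read in cells that held all other members in at least 1 naive wild-type library.

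Cr2, the complement receptor CD21, ran from 149 to 281 CPM in spleens (median 236) and was at 0, 0.112 and 0 CPM in naive dendritic cell replicates 1, 2 and 4, a log2 change of 12.30 (SE 0.54). Follicular dendritic cells of the spleen stroma make Cr2 as well. Ms4a1, which encodes CD20, ran from 224 to 403 CPM in spleens (median 333) and was at 0, 0.411 and 0.0482 CPM in those 3 replicates (log2 fold change 10.84, SE 0.60). Blk ran from 96.6 to 109 CPM in spleens (median 101) and was at 0, 0.149 and 0 CPM (10.80, SE 0.44). Cd79a ran from 245 to 346 CPM in spleens (median 304) and was at 0, 0.243 and 0.193 CPM (10.76, SE 0.45). Pax5 ran from 329 to 525 CPM in spleens (median 409) and was at 0, 0.224 and 0.963 CPM (9.75, SE 0.70). For each of these 5 genes dendritic cell replicate 1 held no read, and every spleen lay far above every dendritic cell library. Such folds rest on few reads of 1 library: replicate 2 held all 6 counts of Cr2, all 8 of Blk and 22 of the 25 of Ms4a1. Leaving out 1 library at a time moved the fold of Cr2 between 11.69 and 17.11, that of Blk between 10.18 and 16.00 and that of Ms4a1 between 10.25 and 13.34. Without replicate 2 no naive read is left for Cr2 and Blk, so their fitted folds then have no measured base.

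A second set of members was held by both kinds of sample. Blnk, the adaptor that links the receptor's kinases to phospholipase C, ran from 197 to 235 CPM in spleens (median 217) and was at 24.1, 28.8 and 26.8 CPM in naive dendritic cell replicates 1, 2 and 4 (log2 fold change 2.75, SE 0.09). Tnfrsf13b, the receptor TACI, ran from 38.9 to 71.8 CPM in spleens (median 60.7) and was at 22.1, 14.0 and 19.99 CPM (1.39, SE 0.18). In both genes the groups did not overlap. Swap70, a signalling protein that acts on the actin skeleton, ran from 82.3 to 121 CPM in spleens (median 99.2) and was at 73.2, 66.0 and 69.6 CPM (0.26, SE 0.10, adjusted p = 0.0377). That call was lost without naive dendritic cell replicate 1, 2 or 4 (adjusted p = 0.0589, 0.126 and 0.0902) and without spleen 4 (0.0541).

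The heat-stable antigen gene Cd24a and the lipid-presenting Cd1d1 did not pass. Cd24a ran from 57.6 to 153 CPM in spleens (median 96.7) and was at 57.7, 66.0 and 59.3 CPM in dendritic cells, inside the range of the spleens (log2 fold change 0.45, SE 0.26, adjusted p = 0.129). It passed without composition factors (0.71, adjusted p = 0.0187) and without spleen 2 (0.58, adjusted p = 0.0371). Cd1d1 ran from 31.5 to 68.7 CPM in spleens (median 53.6) and was at 55.7, 46.2 and 48.3 CPM in dendritic cells (-0.18, SE 0.18, adjusted p = 0.373), with the sign turned at 0.08 without composition factors. Reads of Cd1d1 are uncertain, since a near-identical copy, Cd1d2, lies beside it. Cd72 is uncertain too, since its exons share 1423 bases with Tesk1 on the other strand, as are Cxcr5, which shares 110 with Bcl9l, and Pax5, Bach2, Bcl11a and Cd55, which share 102 to 271 with antisense genes.

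**Figure D1:**
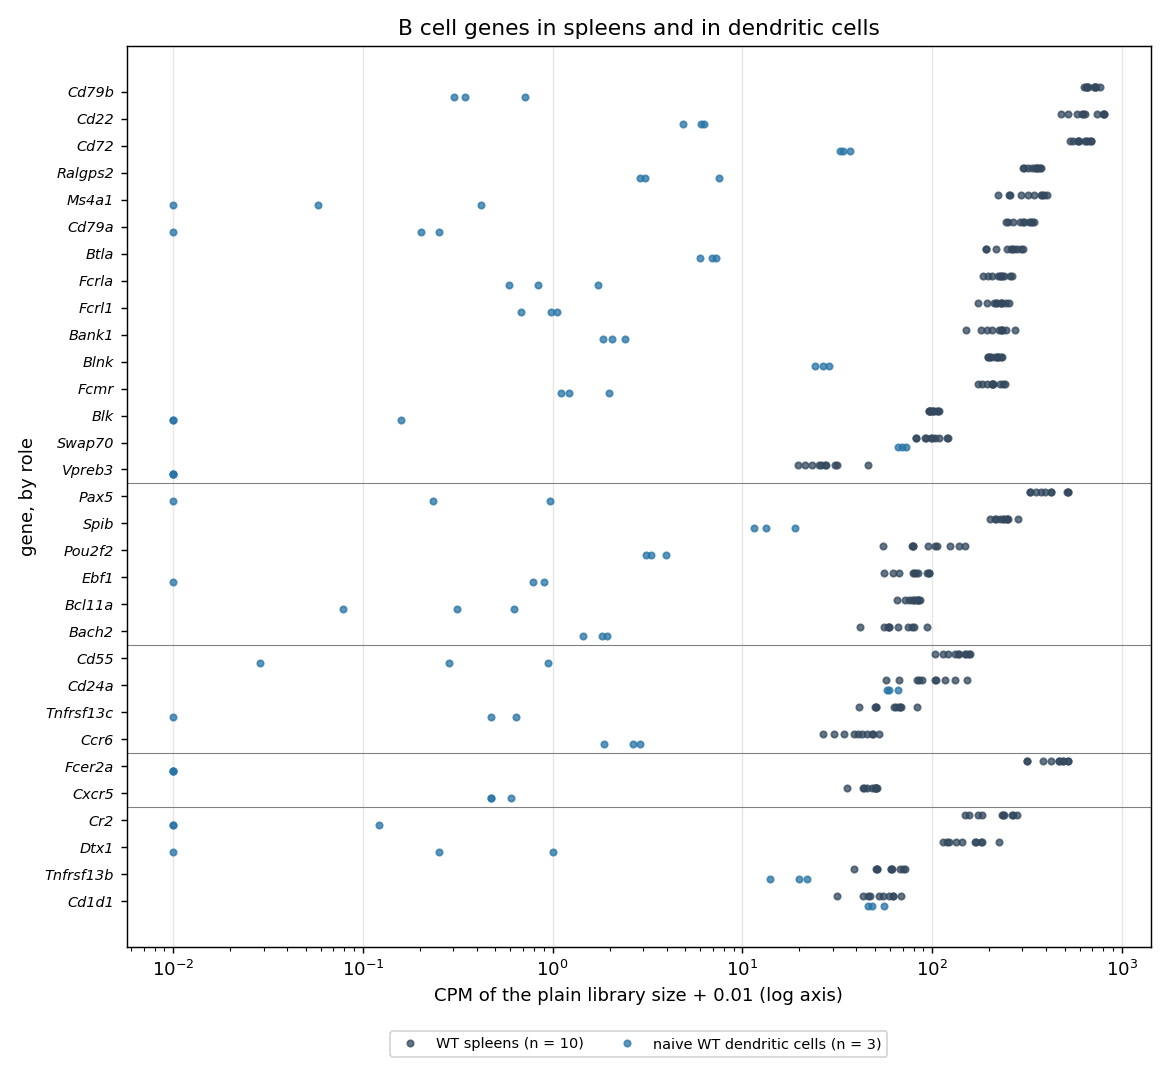
Each point is 1 library: the 10 wild-type spleens (dark) and the 3 naive wild-type dendritic cell libraries (blue), by gene and role, as CPM of the plain library size plus 0.01 on a log axis. Points at the left edge hold no read. Fcer2a and Vpreb3 are at 0 counts in all 3 dendritic cell libraries, while Cd24a and Cd1d1 overlap the spleens and Swap70 lies just below them.

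Genes of the receptor's signalling pathway outside the members were a list of 20, many of which myeloid cells use as well. In wild-type spleens against naive dendritic cells 7 were higher and 10 lower, where 42.4% of all genes were higher and 28.6% lower, with a median of -0.24. Bcl10, a link from the receptor to NF-kB, was lower in spleen at -1.01 (SE 0.08). The summed level of the 20 genes was 3151 to 5867 CPM in spleens and 3995 to 5661 CPM in dendritic cells, ranges that overlap.

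Whether the loss of Gpr34 goes with a change of B cell genes was asked in the 19 spleens. None of the 31 members passed (edgeR's quasi-likelihood test, adjusted p under 0.05 over 20371 genes), where 0.0982% of all genes were higher and 0.0785% lower in the knockout. At an unadjusted p under 0.05 stood 4 members, Btla, Cr2, Spib and Blnk, and 17.4% of all genes. DESeq2 called 0 members higher and 2 lower (2.17% and 2.12% of all genes), and limma voom called 1 in each direction (1.88% and 2.0% of all genes). The log2 fold changes of knockout over wild-type spleens ran from -0.57 to 0.36 with a median of -0.01, and 14 were positive and 17 negative. Their 95% intervals, by a normal approximation from the SE, all lay between -0.82 and 0.90, so none reached a 2-fold change. In whole spleen, fewer B cells and less RNA of a gene per B cell cannot be told apart.

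By role, the 15 genes of the receptor and its signalling had a median log2 fold change of -0.01, with 5 positive and 10 negative. The 6 transcription factors had a median of 0.14, with 4 positive and 2 negative. The 4 surface and survival receptors had a median of 0.03, the follicular pair -0.05 and the 4 marginal zone genes -0.08, from -0.46 for Cr2 to 0.23 for Dtx1, which acts in Notch signalling. The summed level of the 4 marginal zone genes was 299 to 553 CPM with TMM-scaled library sizes in knockout spleens (median 437) and 369 to 589 CPM in wild-type spleens (median 460). That of the follicular pair was 294 to 566 CPM in knockout (median 462) and 349 to 554 CPM in wild-type spleens (median 484). That of the 6 transcription factors was 807 to 1337 CPM in knockout (median 1176) and 872 to 1064 CPM in wild-type spleens (median 929), with 6 of 9 knockout spleens above and 2 below all wild-type spleens. Pax5 and Spib made up most of the transcription factor sum, with means of 503 and 273 in knockout and 403 and 228 in wild-type spleens. Ebf1 and Bach2 had negative fold changes, at -0.02 and -0.12. For the other 4 roles at most 2 knockout spleens lay above and at most 2 below all wild-type spleens.

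**Figure D2:**
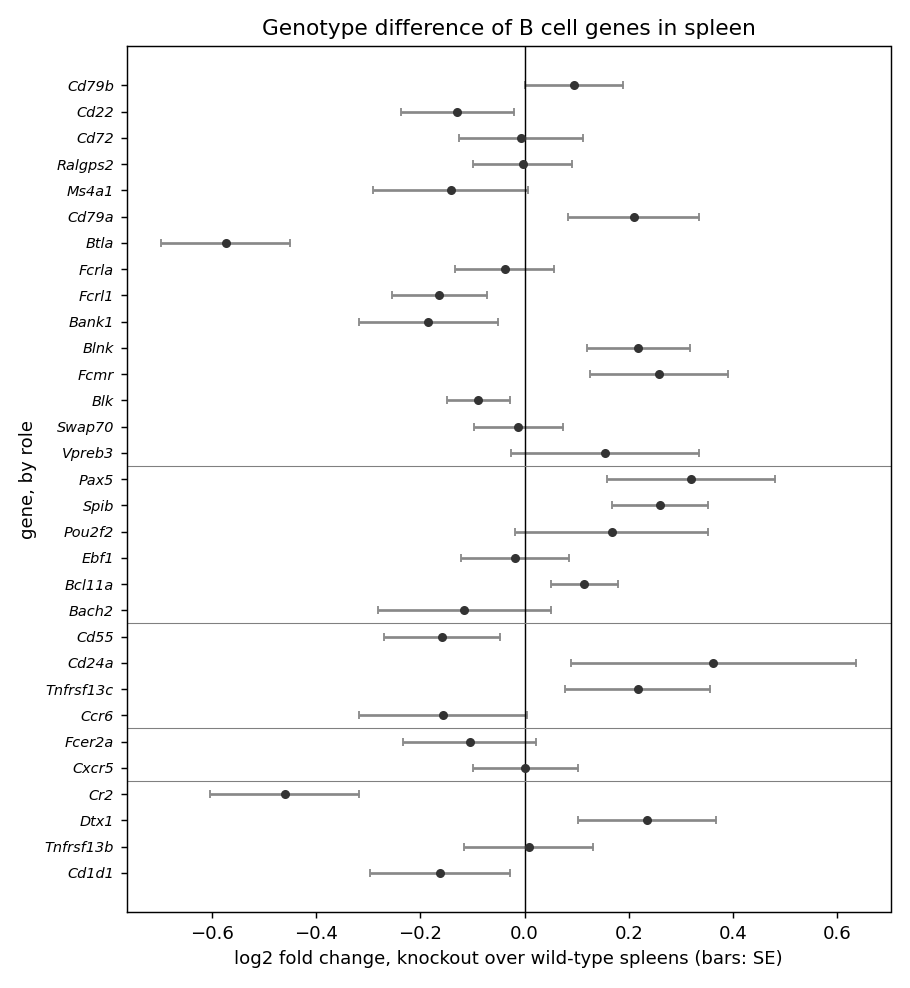
Log2 fold change of each member, knockout over wild-type spleens (9 against 10 libraries), with bars of 1 SE, grouped by role. Values run from -0.57 for Btla to 0.36 for Cd24a, and no member passed over all genes.

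Btla, an inhibitory receptor of B and T cells (ENSMUSG00000052013, chromosome 16 from 45224315 to 45257670, plus strand, GRCm38), came nearest to a call. Its level in knockout spleens 1 to 9 was 142, 173, 134, 112, 180, 228, 217, 148 and 130 TMM-scaled CPM, and in the 10 wild-type spleens it ran from 193 to 286 (median 248.6). Of the 9 knockout spleens 7 lay below the lowest wild-type spleen, and numbers 6 and 7 lay inside the wild-type range. The log2 fold change was -0.57 (SE 0.12, adjusted p = 0.0562). Its direction held in all the alternatives run for it, from -0.68 to -0.46, and the adjusted p ran from 0.00168 by DESeq2 to 0.134 with a replicate block. It was under 0.05 without knockout spleen 6 (0.0102), without knockout spleen 7 (0.0463) and without wild-type spleen 4 (0.0490), so its side of the threshold turned on single libraries.

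Cr2 (ENSMUSG00000026616, chromosome 1 from 195136811 to 195176716, minus strand) was at 165, 177, 120, 104, 168, 209, 182, 131 and 117 TMM-scaled CPM in knockout spleens 1 to 9 and ran from 147 to 263 in wild-type spleens (median 223). The groups overlapped widely, with 5 knockout spleens above the lowest wild-type spleen. Its log2 fold change of -0.46 (SE 0.14) did not pass (adjusted p = 0.122), though it did without knockout spleen 6 (-0.53, adjusted p = 0.0385) and by DESeq2 (-0.46, adjusted p = 0.0400). Once GC and length trends were taken out of every library it was -0.23 (adjusted p = 0.257). A list of 3 stromal genes, Cxcl13, Madcam1 and Ccl19, summed to 120 to 444 TMM-scaled CPM in knockout spleens (median 238). It summed to 190 to 368 in wild-type spleens (median 218). The list does not single out follicular dendritic cells, and their part in the Cr2 values was not tested.

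The transcription factor gene Spib (ENSMUSG00000008193, chromosome 7 from 44525993 to 44532071, minus strand), a relative of PU.1, was at 324, 310, 288, 177, 283, 222, 296, 263 and 297 TMM-scaled CPM in knockout spleens 1 to 9. In wild-type spleens it ran from 202 to 267 (median 228), and 6 knockout spleens lay above that range while number 4 lay below it. The log2 fold change was 0.26 (SE 0.09, adjusted p = 0.167). Blnk (ENSMUSG00000061132, chromosome 19 from 40928927 to 40994535, minus strand) was at 245, 264, 284, 156, 273, 182, 237, 216 and 304 in knockout spleens and ran only from 184 to 220 in wild-type spleens (median 210). Here 6 knockout spleens lay above and numbers 4 and 6 below all wild-type spleens, with a log2 change of 0.22 (SE 0.10, adjusted p = 0.263). Without knockout spleens 4, 6 and 9, both passed, Spib at 0.37 (adjusted p = 0.0112) and Blnk at 0.30 (adjusted p = 0.0228).

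Pax5 (ENSMUSG00000014030, chromosome 4 from 44524757 to 44710487, minus strand) was at 522, 525.5, 611, 393, 585, 242, 423, 446 and 780 TMM-scaled CPM in knockout spleens 1 to 9 and ran from 308 to 519 in wild-type spleens (median 389). Knockout spleen 6 was the lowest and knockout spleen 9 the highest of all 19, and the log2 fold change was 0.32 (SE 0.16, adjusted p = 0.317). Cd79a (ENSMUSG00000003379, chromosome 7 from 24897381 to 24902197, plus strand) was at 325, 312, 402, 275, 378, 195, 323, 319 and 487 in knockout and ran from 236 to 349 in wild-type spleens (median 288), again with number 6 lowest and number 9 highest (0.21, SE 0.13, adjusted p = 0.399). Fcmr ran from 138 to 361 in knockout (median 234) and from 163 to 243 in wild-type spleens (median 197), with numbers 4 and 9 at the ends (0.26, SE 0.13, adjusted p = 0.323).

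Ms4a1 (ENSMUSG00000024673, chromosome 19 from 11249675 to 11266241, minus strand) went the other way in these libraries: at 283, 284, 227, 192, 252, 448, 388, 255 and 209 TMM-scaled CPM in knockout spleens 1 to 9, it was highest in number 6 and low in number 9. In wild-type spleens it ran from 223 to 381 (median 314), and the log2 fold change was -0.14 (SE 0.15, adjusted p = 0.640). Fcer2a (ENSMUSG00000005540, chromosome 8 from 3681737 to 3694175, minus strand) was at 428, 409, 357, 263, 410, 470, 506, 431 and 266 in knockout and ran from 307 to 509 in wild-type spleens (median 438). Only numbers 4 and 9 lay below that range (log2 fold change -0.11, SE 0.13, adjusted p = 0.689), and the sign turned without these 2 libraries (0.03).

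**Figure D3:**
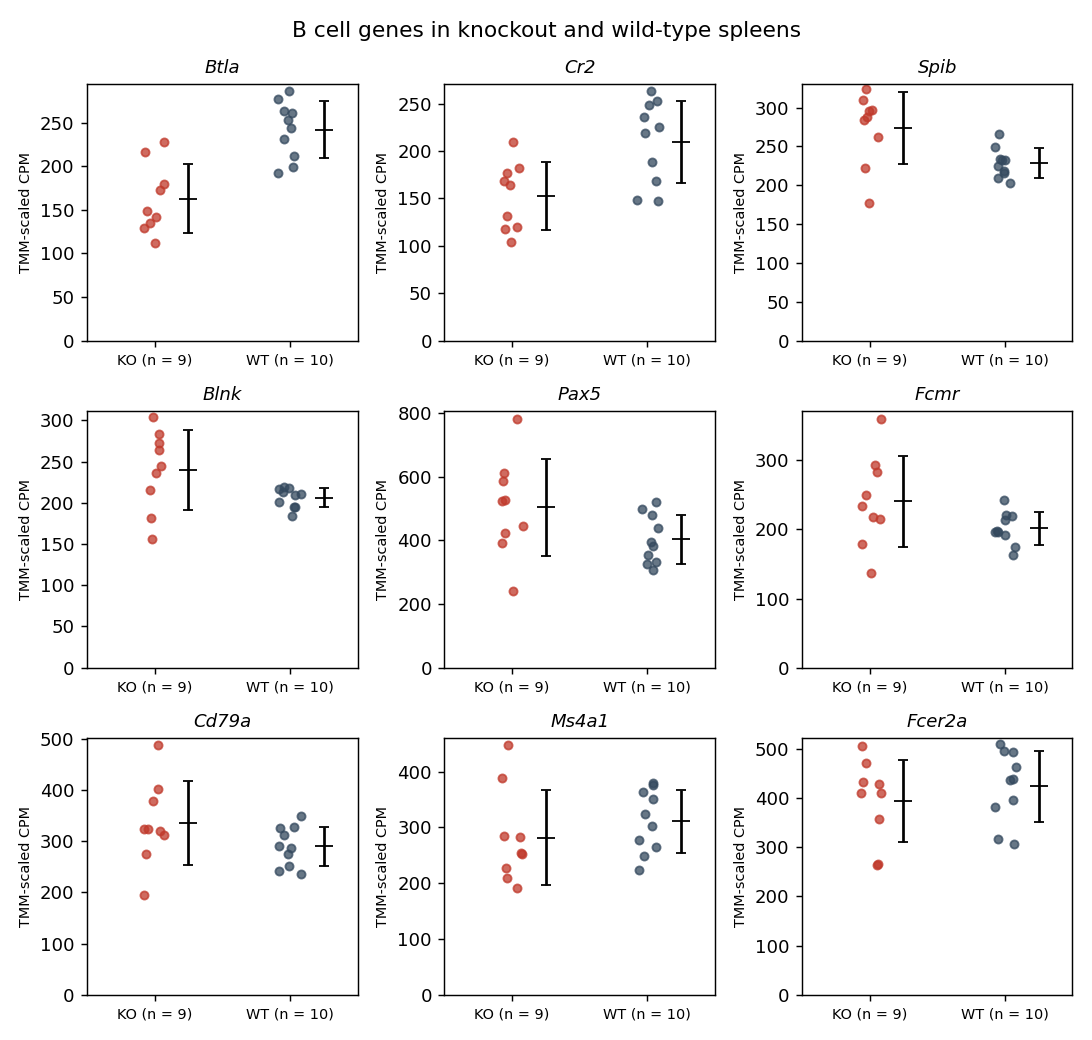
TMM-scaled CPM of 9 members in each knockout (red, n = 9) and wild-type (dark, n = 10) spleen, with the mean and SD beside the points. Knockout spleens lie mostly lower for Btla and Cr2 and mostly higher for Spib and Blnk, with overlap in all 9 genes.

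Knockout spleen 4 stood apart for most members. It was the lowest of the 9 for 21 of 31 members and the lowest of all 19 for 18. It held 4769 TMM-scaled CPM over all members, where the other 8 knockout spleens held 6325 to 7514 and the wild-type spleens 6068 to 6954. Without scaling, the members took 0.378% of its counts, against 0.617 to 0.768% in the other knockout spleens and 0.609 to 0.736% in wild-type spleens. In knockout spleen 4 a list of 9 erythroid markers summed to 48140 TMM-scaled CPM, while they summed to 7735 to 26150 in the other knockout and 5069 to 18730 in wild-type spleens, and their part in the low B cell values was not tested. Cd24a was highest in the same library, at 280 TMM-scaled CPM, and next highest in knockout spleen 6 at 208, where wild-type spleens ended at 158. Knockout spleen 7 was the highest of its group for 13 members, and wild-type spleen 8 the lowest of its group for 12.

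The members' fold changes also went with GC content. Across the 31 members Spearman's rho between the log2 fold change and GC content was 0.527, and across 18821 tested genes of known GC content it was 0.359; the genes share the same 19 libraries and are no independent replicates. Bank1, Ms4a1, Btla and Cr2, whose exons hold 39.0, 40.6, 40.7 and 41.4% GC, had negative fold changes, as the 4 members of lowest GC content. Of the 4 with the highest, Dtx1 at 62.5% and Spib and Cd79a, both at 54.9%, had positive ones and Cd72 at 56.5% was at -0.01. Other members went against this order, such as Cd24a at 43.0% GC with 0.36 and Cd22 at 52.1% with -0.13. Per library, rho was taken over 13187 genes between GC content and the deviation from the mean of the 10 wild-type spleens. It was positive in 8 of 9 knockout spleens (0.231 to 0.455) and -0.304 in number 6. In wild-type spleens, which make up that mean themselves, it was -0.494 to 0.342. Over the 31 members alone it ran from -0.481 to 0.71 in knockout spleens, positive in 8 of 9. In wild-type spleens the members' values ran from -0.57 to 0.638. The trends with GC content and length were then removed from each library's deviation from the mean of all 19 spleens. Btla was then at -0.46 (adjusted p = 0.0367), Cr2 at -0.23, Spib at 0.15 (adjusted p = 0.416) and Pax5 at 0.52 (adjusted p = 0.230).

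**Figure D4:**
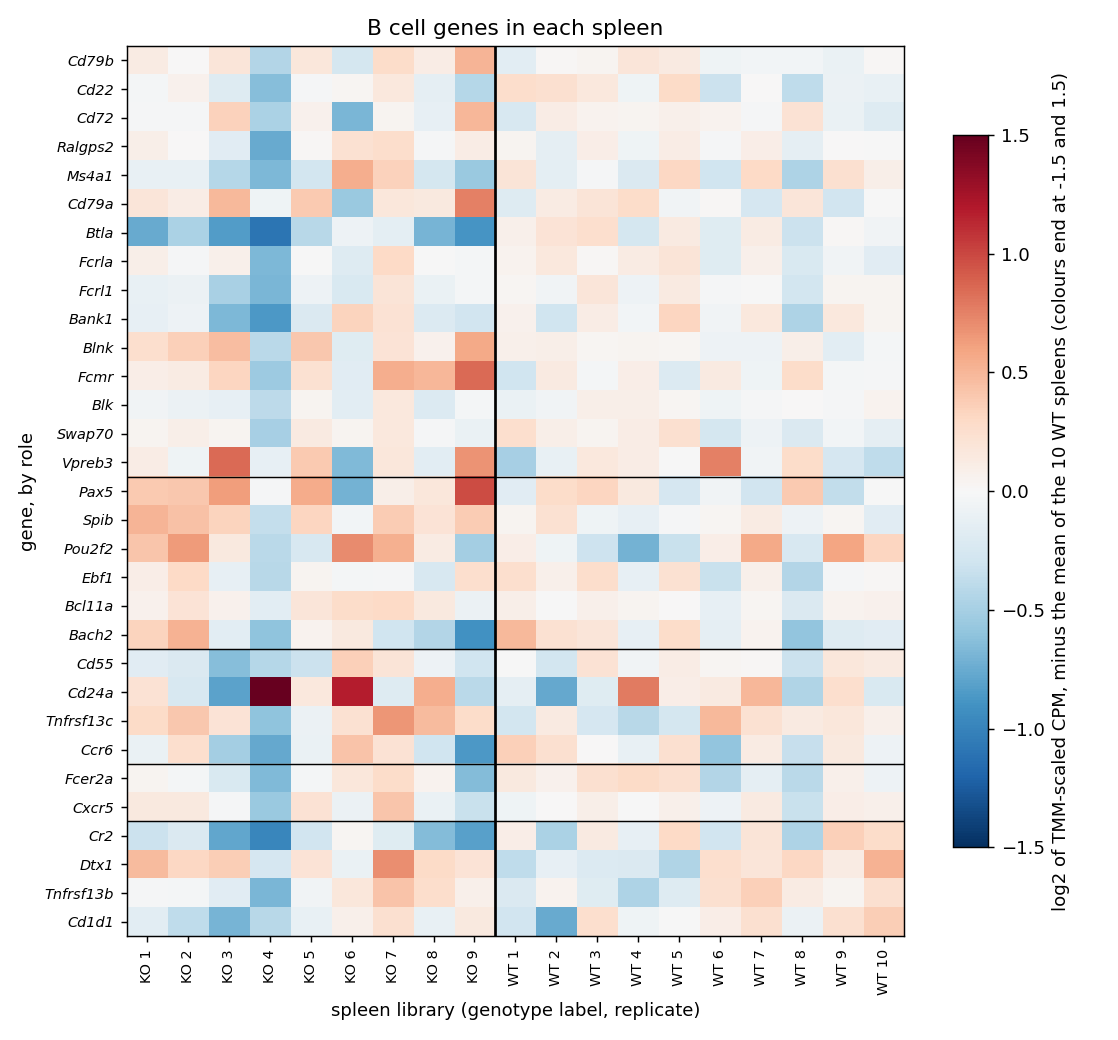
Each cell is the log2 TMM-scaled CPM of a member in 1 spleen minus the mean of the 10 wild-type spleens (colours end at -1.5 and 1.5), with knockout spleens left and wild-type spleens right. The column of knockout spleen 4 is low for most members but Cd24a, and knockout spleens 6 and 9 deviate in opposite directions for Ms4a1, Cd79a and Pax5.

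None of the B lineage lists outside the members held a called gene in the spleen comparison either. The 20 receptor signalling genes had a median log2 fold change of 0.04, with Grb2 at 0.22 (SE 0.09, adjusted p = 0.209) and Malt1 at -0.38 (SE 0.16, adjusted p = 0.227) at the smallest p. Of 6 further marginal zone genes, median -0.06, Myof was at -0.41 (SE 0.12, adjusted p = 0.103) and Fcrl5 at -0.28 (SE 0.08, adjusted p = 0.115). All 8 plasma cell markers had negative values, with a median of -0.32. They summed to 695 to 1202 TMM-scaled CPM in knockout (median 1038) and 897 to 1523 in wild-type spleens (median 1293), ranges that overlap. Prdm1, the regulator of plasma cell formation, was at -0.53 (SE 0.17, adjusted p = 0.134) and Sdc1, the plasma cell surface protein CD138, at -0.36 (SE 0.12, adjusted p = 0.155). The 11 T cell markers summed to 441 to 999 TMM-scaled CPM in knockout (median 704) and 548 to 876 in wild-type spleens (median 714). Exocrine pancreas markers, a sign of tissue taken along with the spleen, ranged from 11.9 to 2666 in knockout and from 11.2 to 1218 in wild-type spleens, and their part in the member values was not tested.

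LPS changed a part of the members in wild-type dendritic cells. Of 28 members that passed the filter on low counts, 10 were higher and 4 lower with LPS (edgeR's quasi-likelihood test, adjusted p under 0.05 over 16965 genes), where 18.1% of all genes were higher and 15.8% lower. Cr2, Blk and Vpreb3 did not pass the filter. The higher ones were Blnk, Cd72, Pou2f2, Btla, Fcrl1, Cd1d1, Swap70, Cxcr5, Fcmr and Fcer2a, and the lower ones Cd24a, Spib, Ccr6 and Bank1. The markers Ms4a1, Cd79a, Cd79b and Pax5 did not pass and reached at most 1.15 TMM-scaled CPM in any wild-type library. By limma voom Ms4a1 was called higher (log2 fold change 3.82, adjusted p = 0.0288). That method called 12 members higher and 5 lower, where it called 21.2% of all genes higher and 19.1% lower. The median over the 28 members was 0.22 and over all genes -0.03; without composition factors these were -0.18 and -0.44. By role, 6 of 13 receptor and signalling genes were higher and 1 lower, both follicular genes were higher, 2 of 4 surface and survival receptors were lower, and the 6 transcription factors gave 1 in each direction.

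Blnk was at 148, 155 and 182 TMM-scaled CPM in LPS-treated wild-type replicates 1, 2 and 3 and at 20.8, 25.3 and 23.4 in naive replicates 1, 2 and 4, a log2 change of 2.80 (SE 0.19, adjusted p = 2.82e-06). Cd72 (ENSMUSG00000028459, chromosome 4 from 43446462 to 43454628, minus strand), an inhibitory co-receptor, was at 242, 202 and 198 with LPS and at 28.2, 29.8 and 32.3 in naive cells (2.83, SE 0.19, adjusted p = 2.86e-06). Btla was at 71.5, 84.9 and 64.6 with LPS and at 6.26, 5.24 and 6.06 in naive cells (3.65, SE 0.37, adjusted p = 3.77e-05). Of these 3 signalling genes Btla, an inhibitory receptor, was raised by the widest margin. The 3 were picked by their small p for LPS, so their lack of overlap between the groups follows largely from that choice.

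Pou2f2 (ENSMUSG00000008496, chromosome 7 from 25087344 to 25179726, minus strand), which encodes the octamer-binding factor Oct-2, was at 29.4, 26.9 and 17.0 TMM-scaled CPM with LPS and at 3.42, 2.90 and 2.70 in naive cells (log2 change 3.02, SE 0.25, adjusted p = 1.09e-05). Fcrl1, a receptor of the Fc receptor-like family (ENSMUSG00000059994, chromosome 3 from 87376387 to 87402934, plus strand), was low in both states, at 3.85, 4.25 and 4.72 with LPS and at 0.832, 0.589 and 0.912 in naive cells (2.45, SE 0.32, adjusted p = 0.000217). Cd1d1 (ENSMUSG00000028076, chromosome 3 from 86995834 to 86999441, minus strand), which presents lipids to natural killer T cells, was at 136, 158 and 138 with LPS and at 48.0, 40.6 and 42.2 in naive cells (1.72, SE 0.23, adjusted p = 0.000239). In all 3 genes, picked by their small p as well, every LPS-treated library lay above every naive one.

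Cd24a and Spib, both read well in naive cells, were lower with LPS. Cd24a (ENSMUSG00000047139, chromosome 10 from 43578284 to 43584265, plus strand) was at 17.7, 20.1 and 16.6 TMM-scaled CPM with LPS and at 49.7, 57.8 and 51.8 in naive cells (log2 change -1.55, SE 0.19, adjusted p = 0.000124). Spib was at 2.12, 4.21 and 3.48 with LPS and at 9.93, 16.6 and 11.6 in naive cells (-1.95, SE 0.28, adjusted p = 0.000380). The other called members rested on fewer reads. Fcer2a had 10, 48 and 31 counts with LPS and 0 in each naive library, at least 39.1-fold higher with LPS by the same floor. Ccr6, a chemokine receptor, had 0, 9 and 1 counts with LPS and 153, 99 and 180 in naive cells (-4.66, SE 1.17). Cxcr5, the receptor that leads cells into follicles, had 110, 74 and 75 counts with LPS and 27, 25 and 37 in naive cells (2.38, SE 0.39).

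Fcmr had 132, 353 and 153 counts with LPS and 114, 65 and 68 in naive cells (log2 change 2.12, SE 0.56, adjusted p = 0.0134), and its call was lost without naive replicate 2 (adjusted p = 0.0555), without naive replicate 4 (0.0577) and without LPS-treated replicate 2 (0.0530). Bank1, a scaffold of B cell signalling, had 28, 26 and 16 counts with LPS and 140, 98 and 128 in naive cells (-1.57, SE 0.55, adjusted p = 0.0464). Its call was lost without any 1 of the 6 wild-type libraries (adjusted p = 0.0710 to 0.129) and, since the libraries labelled knockout share the fit, without naive replicate 4 (0.0574) or LPS-treated replicate 3 (0.0570) of those. Without composition factors these 14 kept their direction and their calls. Calls were gained by Fcrla without LPS-treated replicate 3 (-8.64, adjusted p = 0.00457, from -2.95 and 0.0904) and by Bach2 without LPS-treated replicate 2 or 4 labelled knockout (-2.77 in both, adjusted p = 0.0243 and 0.00875, from 0.0564). DESeq2 called 7 members lower, where it called 18.8% of all genes lower.

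Promoters are shown for 4 signalling members that rose with LPS in dendritic cells, and for Cd79a, which did not, as a gene with hardly a read in dendritic cells. Of the 31 members 25 matched the RefSeq promoter table (GRCm38.p6, 250 bases before to 50 after the start); not matched were Blk, Cd1d1, Cd24a, Cd79b, Cxcr5 and Ms4a1. Capitals mark matches, on either strand, to GAGGAA, the core bound by PU.1 and Spi-B, or, in Blnk, to the octamer ATGCAAAT, the site of Oct-2. The places are chr16:45224087-45224386 (plus) for Btla, chr4:43454577-43454876 (minus) for Cd72, chr3:87376137-87376436 (plus) for Fcrl1, chr19:40994172-40994471 (minus) for Blnk and chr7:24897247-24897546 (plus) for Cd79a, each printed 5′ to 3′ along its gene.
Btla: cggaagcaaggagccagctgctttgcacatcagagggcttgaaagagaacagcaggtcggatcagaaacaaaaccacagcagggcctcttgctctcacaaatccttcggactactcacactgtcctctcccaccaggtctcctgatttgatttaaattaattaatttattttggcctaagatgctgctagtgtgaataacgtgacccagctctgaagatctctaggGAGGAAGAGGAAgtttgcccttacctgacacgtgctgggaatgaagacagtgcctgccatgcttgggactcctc
Cd72: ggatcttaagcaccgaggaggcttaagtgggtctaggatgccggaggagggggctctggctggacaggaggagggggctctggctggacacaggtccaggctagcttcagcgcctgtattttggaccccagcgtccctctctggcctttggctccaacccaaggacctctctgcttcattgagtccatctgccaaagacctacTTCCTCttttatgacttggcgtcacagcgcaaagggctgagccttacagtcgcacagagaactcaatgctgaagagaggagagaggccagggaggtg
Fcrl1: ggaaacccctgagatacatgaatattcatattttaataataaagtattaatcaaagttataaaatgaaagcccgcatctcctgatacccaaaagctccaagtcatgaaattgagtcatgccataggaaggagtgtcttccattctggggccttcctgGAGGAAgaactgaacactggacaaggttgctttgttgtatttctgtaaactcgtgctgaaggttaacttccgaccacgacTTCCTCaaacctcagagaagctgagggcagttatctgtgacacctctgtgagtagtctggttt
Blnk: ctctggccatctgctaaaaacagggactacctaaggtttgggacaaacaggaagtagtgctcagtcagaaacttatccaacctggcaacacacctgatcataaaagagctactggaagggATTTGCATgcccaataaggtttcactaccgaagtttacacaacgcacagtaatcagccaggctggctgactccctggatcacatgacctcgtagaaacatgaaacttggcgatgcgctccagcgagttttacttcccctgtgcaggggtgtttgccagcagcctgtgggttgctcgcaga
Cd79a: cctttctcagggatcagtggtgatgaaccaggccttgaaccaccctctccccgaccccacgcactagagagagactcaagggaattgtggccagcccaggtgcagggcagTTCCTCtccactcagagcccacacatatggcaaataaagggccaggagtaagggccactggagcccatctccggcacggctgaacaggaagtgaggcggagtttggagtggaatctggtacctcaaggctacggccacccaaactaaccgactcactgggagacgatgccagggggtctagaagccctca

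The matches begin at positions -24 and -18 from the start in Btla, side by side and without overlap on the plus strand of the gene, at -47 in Cd72, at -93 and -13 in Fcrl1, at -130 in Blnk and at -140 in Cd79a. The start is that of the RefSeq table and can differ from the gene coordinates given above. In Blnk, on the minus strand, the printed window lies wholly inside those coordinates, which run to 40994535. Its octamer is thus upstream of the RefSeq start only. Among the 30 member promoters in the table, 36.7% held GAGGAA, where 28.3% of all 32851 promoters did. The octamer was in 10.0% of them (Blnk, Ccr6 and Vpreb3), where 1.74% of all promoters held it, and the EBF1 motif TCCCNNGGGA in 3.33% (Cd22), where 0.904% of all did. None of these motifs overlapped another in the promoters printed. The matches describe the letters of these windows only.

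**Figure D5:**
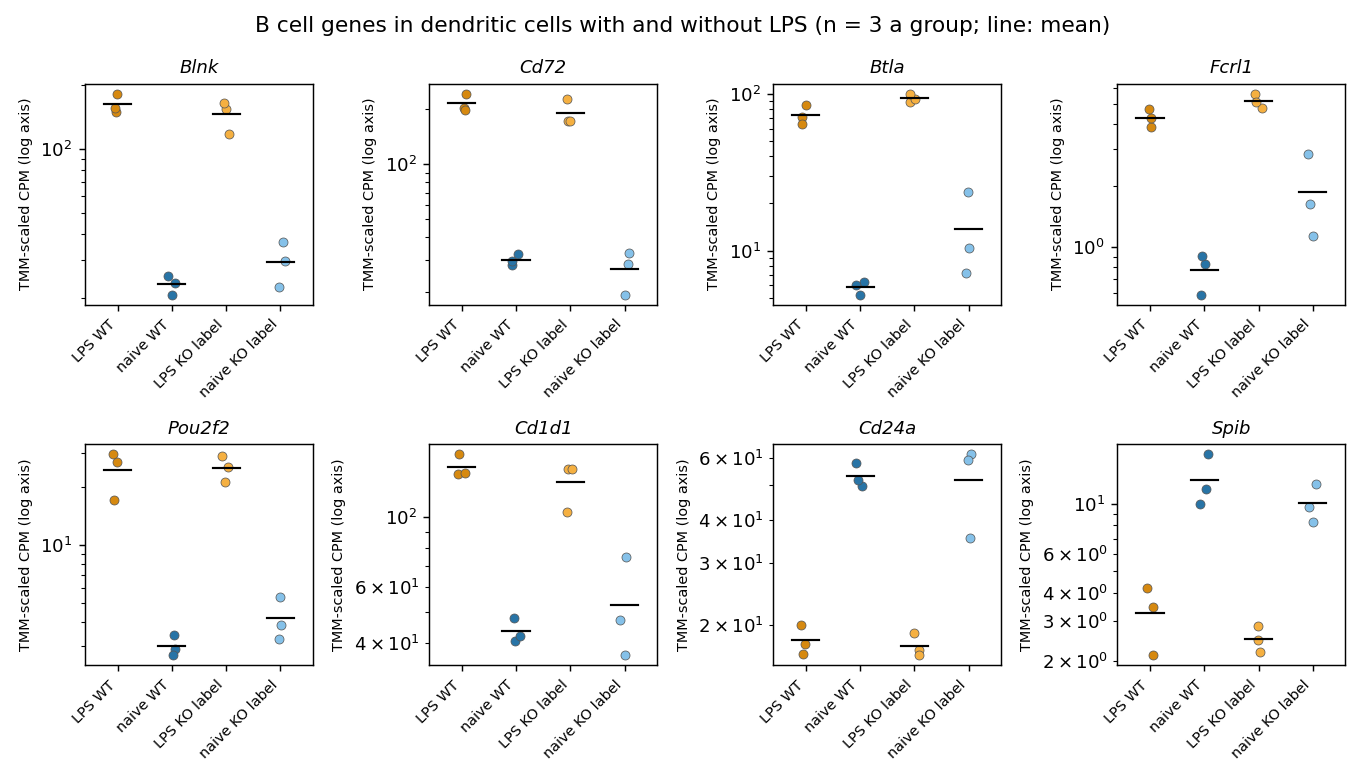
TMM-scaled CPM (log axes) of the 8 members with the smallest p for LPS in wild-type dendritic cells, in each of the 3 libraries of 4 groups (LPS wild-type, naive wild-type, LPS labelled knockout, naive labelled knockout), with lines at the means. Blnk, Cd72, Btla, Fcrl1, Pou2f2 and Cd1d1 are higher and Cd24a and Spib lower with LPS under both labels.

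In the dendritic cells labelled knockout, 10 members were higher and 2 lower with LPS, where 15.3% of all genes were higher and 13.4% lower. All 12 were also called in wild-type cells, in the same direction, which is 85.7% of the 14 called there; Bank1 and Ccr6 were called in wild-type cells only. The same share over all genes is not given here, so the overlap is not read as particular to the members. The libraries of both responses are separate, though 1 fit holds them. Blnk was at 154, 118 and 165 TMM-scaled CPM in LPS-treated replicates 2, 3 and 4 labelled knockout and at 29.8, 36.5 and 22.5 in naive replicates 2, 3 and 4 so labelled (log2 fold change 2.30, SE 0.19). Cd72 was at 171, 171 and 226 with LPS and at 32.8, 19.5 and 28.5 in naive cells (2.82, SE 0.19). Fcer2a, which held almost no read without LPS, had 25, 80 and 66 counts with LPS and 1, 0 and 0 in naive cells, a ratio of 187.5 with a counting interval of 33.2 to 7450. Pou2f2 rose by a log2 change of 2.59 (SE 0.25), Cxcr5 by 2.45 (SE 0.40) and Fcmr by 2.66 (SE 0.58), while Spib fell by 2.00 (SE 0.28) and Cd24a by 1.57 (SE 0.19).

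Naive replicate 3 labelled knockout was the highest of the 6 naive libraries for 5 members (Blnk, Btla, Cd1d1, Ralgps2 and Swap70) and the lowest for 6 (Bank1, Ccr6, Cd22, Cd24a, Cd72 and Cd79b), while naive replicate 2 so labelled was the highest for 9 and the lowest for 4. Naive wild-type replicate 2 was the highest for 7 and the lowest for 4, and naive wild-type replicate 4 the highest for 5. By these counts naive replicate 3 labelled knockout did not stand apart. Cd24a was at 35.3 TMM-scaled CPM in naive replicate 3 labelled knockout and at 49.7 to 61.3 in the other naive libraries. Btla was at 89.2, 92.6 and 100 TMM-scaled CPM in LPS-treated replicates 2, 3 and 4 labelled knockout and at 7.17, 23.7 and 10.4 in naive replicates 2, 3 and 4 (log2 fold change 2.77, SE 0.35). Swap70 was at 203, 167 and 201 with LPS and at 52.3, 148 and 66.1 in naive cells (1.10, SE 0.31, adjusted p = 0.0200), and Cd1d1 at 142, 104 and 141 with LPS and at 36.6, 74.99 and 47.3 in naive cells (1.28, SE 0.23). For these 3 genes the high naive value is that of replicate 3, which also held 120 Gpr34 counts and 523 CPM of Cd40, by the plain library size. Without it Bank1 (-1.54, adjusted p = 0.0201) and Ralgps2 (1.67, adjusted p = 0.0456) were called, and without LPS-treated replicate 2 Bach2 was (-4.07, adjusted p = 0.0167). Bcl11a, at -3.81 (adjusted p = 0.0646), was called without LPS-treated wild-type replicate 1 (0.0268) or 2 (0.0474), and limma voom called 4 members lower, where it called 17.6% of all genes lower. The Swap70 call was lost without naive replicate 2 (adjusted p = 0.0570) or 4 (0.0818), without LPS-treated replicate 2 (0.0543) or 4 (0.0564), and without composition factors (0.0570), where the median of all genes is -0.35 in place of -0.02.

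Between the labels edgeR called no member. In naive cells 0 of 28 members and 0 of all genes passed (0% higher and 0% lower), with 2 members and 6.71% of all genes at an unadjusted p under 0.05: Fcrl1 at 1.25 (SE 0.31, adjusted p = 0.617) and Btla at 1.24 (SE 0.34, adjusted p = 0.617). DESeq2 called Btla there (1.22, adjusted p = 0.0498), with 0.271% of all genes higher. Fcrl1 was at 1.64, 1.13 and 2.84 TMM-scaled CPM in naive replicates 2, 3 and 4 labelled knockout, above all 3 naive wild-type values. It held 92 to 138 counts in those libraries and 36 to 65 in naive wild-type ones. Being named for its small p, it lacks overlap largely by that choice. With LPS 0 of 28 members and 0 genes passed by edgeR, with 3 members and 11.3% of all genes at an unadjusted p under 0.05. DESeq2 called 1.3% of genes higher and 0.89% lower there, with 0 members, and limma voom called none. The interaction of label and LPS gave 0 members and 0 genes by edgeR, with 2 members and 4.0% of genes at that level. DESeq2 called 0.0589% of genes with a positive and 0.0648% with a negative interaction, 0 members among them, and limma voom called none. Values of rare genes were wide in these tests: Ebf1 was at 7.92 (SE 2.85, adjusted p = 0.9999) in the interaction, from 0 to 48 counts per library.

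Of the 20 genes of the receptor's pathway outside the members, LPS raised 9 and lowered 4 in wild-type cells, where 18.1% of all genes were higher and 15.8% lower. In cells labelled knockout 8 were higher and 4 lower, where 15.3% of all genes were higher and 13.4% lower. Cd81, a membrane protein that many cells carry, rose by a log2 change of 1.85 (SE 0.16) in wild-type cells and of 1.31 (SE 0.16) under the knockout label. Malt1, a protease on the way to NF-kB, rose by 1.63 (SE 0.22) and 1.41 (SE 0.21).

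As a share of all counts the 31 members stayed small in dendritic cells. Summed, they were at 845 to 934 TMM-scaled CPM in LPS-treated and 268 to 271 in naive wild-type cells, and at 737 to 934 in LPS-treated and 277 to 388 in naive cells labelled knockout. Their share of the plain counts was 0.0307 to 0.0826% over the 12 libraries. The sum of the 15 receptor and signalling genes was at 646 to 703 TMM-scaled CPM in LPS-treated and 132 to 136 in naive wild-type cells. Of it Cd72, Swap70, Blnk and Btla made up most, with means of 214, 213, 162 and 73.6 in LPS-treated and of 30.1, 60.6, 23.1 and 5.85 in naive wild-type cells. The 4 surface and survival receptors were at 19.1 to 22.5 with LPS and 52.2 to 60.0 without it. Cd24a made up most of that sum, with means of 18.1 with LPS and 53.1 in naive wild-type cells. Ccr6 was at means of 0.0773 and 2.14 and Cd55 at 0.321 and 0.356, while Tnfrsf13c went the other way, at 1.84 and 0.321. The 8 B cell markers summed to 2.17 to 6.40 TMM-scaled CPM in LPS-treated and 5.44 to 7.19 in naive wild-type cells, ranges that overlap.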

How the data were processed

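Each library has 1 deposited file of raw counts, whole numbers by Ensembl gene ID. Per the submitters' processing notes TopHat 1.3.3, Bowtie, SAMtools, bedtools, DESeq and mm9 were used, in roles that stay unnamed; the annotation, the use of strand and how multi-mapped reads were treated are not given in any source used here. Among counts up to 200 59.0 to 62.1% were even in spleen files and 57.8 to 59.0% in those of dendritic cells, so counts may hold both mates of a pair. Genes absent from a file were set to 0. Symbols matched 26090 of 29120 IDs. Gene coordinates are those of GRCm38 (GENCODE M21), found by ID, and not of mm9. Libraries within each group differed beyond sampling noise (chi-square per gene at least 26.6).

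The test was the quasi-likelihood F-test of edgeR 4.0.16 in R 4.3.3 ( filterByExpr, TMM, robust, Benjamini-Hochberg adjustment at 0.05 over all genes tested): 19 spleens in 1 fit (20371 genes, biological coefficient of variation 0.394), 12 dendritic cell libraries in another with a mean per group (16965 genes, 0.311), and 10 wild-type spleens with 3 naive wild-type dendritic cell libraries in the last (21660 genes, 0.419). The SE is the log2 fold change divided by the root of F. For a group at 0 the floor was 3 counts, pooled; intervals and floors cover counting error only, and with both mates counted they may be too narrow. The tests were tested on simulated counts.

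Alternatives were DESeq2 1.42.0, RLE factors, limma voom (limma 3.58.1) weighting samples, fits with no filter or no composition factors, a replicate block, leaving out each library, leaving out knockout spleens 4, 6 and 9, 2 surrogate variables (sva 3.50.0), all 31 libraries in 1 fit, and the 6 wild-type dendritic cell libraries alone. Chosen after seeing the data were removal of the GC and length trends (lowess, span 0.3) and leaving out knockout spleens 4 and 9. The members and lists were chosen with earlier results of these data known. Values per library are given for Cd79a, Ms4a1, Pax5, Cr2 and Fcer2a, for the 6 members with the smallest p in spleen, the 8 with the smallest p for LPS in wild-type cells, and the 5 highest and 5 lowest folds between spleen and dendritic cells, with up to 2 genes per further list by smallest p; other members named beside these were chosen after their values were seen.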

Additional observations from a re-analysis of the deposited data

Results flagged for a closer look

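In 3 of the 62 sets of spleens tested (31 members in each genotype), 1 spleen lay far from the others of its group, where chance flags about 1 in 20. Swap70 was lowest in knockout spleen 4, at 67.4 TMM-scaled CPM with the next at 89.0 and the highest at 106; the gap was 0.554 of the range. Cxcr5 was lowest in wild-type spleen 8, at 35.5 with the next at 42.5 and the highest at 49.2 (0.509 of the range). Vpreb3 was highest in wild-type spleen 6, at 44.3 with the next at 31.6 and the lowest at 18.5 (0.492 of the range).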

How the results depend on the processing

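In spleen, where no member passed, 1 member was higher by limma voom and 2 without knockout spleens 4, 6 and 9; 1 was lower without composition factors, by limma voom, without those 3 spleens and with GC and length trends removed, and 2 by DESeq2. Leaving out each library gave 0 to 2 lower and 0 higher. Over all genes 36 were called, against 190 without composition factors, 873 by DESeq2, 790 by limma voom, 297 without the 3 spleens, 16 without knockout spleens 4 and 9, 69 with 2 surrogate variables and 89 with the trends removed. Leaving out 1 library gave 8 to 1051, the highest without knockout spleen 6 and the lowest without knockout spleen 8, with 103 without wild-type spleen 2, 55 without wild-type spleen 4 and 15 without wild-type spleen 5. The causes were not tested. Fcer2a turned to 0.01 without knockout spleens 4, 6 and 9 and to 0.03 without 4 and 9, and Cd1d1 between spleen and dendritic cells to 0.08 without composition factors.

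For LPS, 7 members were lower in wild-type cells by DESeq2 and 4 in cells labelled knockout by limma voom; leaving out each library gave 9 to 10 higher and 3 to 5 lower in wild-type cells and 9 to 11 higher and 2 to 3 lower under the knockout label. Between labels in naive cells, DESeq2 called 1 member and 76 genes, limma voom 1 gene and the fit without a filter 1 gene; leaving out each library gave 0 to 1. With LPS DESeq2 called 372 genes, and leaving out each library gave 0 to 2. DESeq2 called 21 genes in the interaction. Between spleen and dendritic cells, leaving out each library gave 28 to 30 members higher.

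Without composition factors the calls over all genes moved towards 1 direction: 7 higher and 183 lower in spleen (20 and 16 with them), 1599 and 6128 for LPS in wild-type cells (3064 and 2679), 1441 and 4986 under the knockout label (2601 and 2274), and 10608 and 4773 between spleen and dendritic cells (9175 and 6197). The check of same-numbered libraries did not meet the bar for pairing in any comparison: in spleen the correlation of deviations ran from -0.371 to 0.545 over 9 pairs, 5 over 0.1 and 3 best with their own number. Between LPS-treated and naive cells labelled knockout, it was 0.096 to 0.235 over 3 pairs, 2 over 0.1 and all 3 best with their own number, a hint of pairing from the data; there the block gave 10 members higher and 2 lower. The other groups gave -0.191 to 0.030. With a replicate block 3 genes were called in spleen, no member among them, and Cd1d1 was the 1 member lower between spleen and dendritic cells (-0.55, adjusted p = 0.0350). In wild-type cells the block ended the LPS calls of Bank1 (adjusted p = 0.143) and Fcmr (0.0625) and added Tnfrsf13c (0.0360). Depth limits the members under about 1 CPM in dendritic cells, whose folds rest on few reads.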

Other observations

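Lists of other stages of the B lineage were measured beside the members. Of 6 germinal centre genes, none was called between the genotypes in spleen, with a median log2 fold change of 0.23. S1pr2, a sphingosine phosphate receptor, was at 0.37 (SE 0.28, adjusted p = 0.508). Of 6 precursor genes 3 passed the filter in spleen, and all 6 summed to 2.19 to 8.26 TMM-scaled CPM in knockout and 3.09 to 7.45 in wild-type spleens. In naive dendritic cells labelled knockout Dntt, Igll1 and Vpreb2 were at 0 counts, and in naive wild-type cells Rag1 and Vpreb2. The further marginal zone list of 6 genes, which holds Cd9 and Notch2, did not follow the members between tissues: its sum was 248.9 to 456 CPM of the plain library size in spleens and 1052 to 1682 in dendritic cells, where 1 of the 6 was higher and 4 lower in spleen (42.4% and 28.6% of all genes).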
